A study of Mus musculus with 6 samples.

Results

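The 9 genes described here encode enzymes that take glycoproteins apart, most of them glycosidases, and an epimerase that handles the freed amino sugar. They are Fuca1, Fuca2, Man2b1, Man2b2, Manba, Aga, Engase, Ctbs and Renbp, and each was found as a single transcript cluster among the 16583 genes that the array names by 1 symbol. They were chosen by name for their function, with the results of the same knockdown comparison already known, so their differences are given as a description. RNA came from Neuro2a, a mouse neuroblastoma line, and was hybridised to Affymetrix Mouse Gene 1.0 ST arrays. The control group was 3 samples of cells labelled "Empty vector". The knockdown group was 3 samples labelled "USF1,2-RNAi", in which microRNA-type RNA interference vectors of the pcDNA6.2-GW/EmGFP-miR system against the transcription factors USF1 and USF2 were brought in by lipofection. The labels call the samples of a group biological replicates, but the time after transfection, the share of cells that took up a vector and whether each sample was a culture of its own are not given. A p-value here therefore weighs only how these particular samples varied, which may be technical variation.

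Asparagine-linked glycans are cleared in the lysosome by enzymes that act on different parts of the chain. Fucosidases and mannosidases remove fucose and mannose, while aspartylglucosaminidase and chitobiase open the core where the chain joins the protein. Loss of the lysosomal fucosidase, of the main alpha-mannosidase or the beta-mannosidase, or of aspartylglucosaminidase causes storage of undigested oligosaccharides, with severe effects on neurons. A separate cytosolic route frees glycans from misfolded glycoproteins, and cytosolic enzymes return N-acetylglucosamine and N-acetylmannosamine to metabolism. USF1 and USF2 bind E-box sequences in promoters, CACGTG above all, and the study's title names lysosomal genes as their targets.

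Every value was taken as a log2 signal relative to the median of that gene over the 6 arrays, so it can be compared between arrays but not between genes. The rounding of the numbers placed 8 of the 9 genes in the brighter class of the array (8 to 16 on the log2 scale before centring) and Ctbs in the dimmer class (4 to 8). The number of arrays limits the precision, and the median standard error of a change over all genes was 0.0561. The targets were lower after knockdown, Usf1 by -0.55 ± 0.07 (SE, n = 3 arrays per group) and Usf2 by -0.38 ± 0.06, with the 3 knockdown arrays below the 3 control arrays for both (limma adjusted p = 0.320 and 0.348 over all genes; exact two-sided permutation p = 0.1 for each, the smallest that 3 against 3 arrays allows). A partial loss in every cell and a full loss in part of the cells cannot be told apart in these bulk samples. Knockdown array 2 stood apart. Its standard deviation over all clusters was 0.159, against 0.0531 to 0.078 on the other arrays, and its median was -0.0259 over brighter genes and 0.08 over dimmer genes. Of the measured neuronal and sympathetic markers, 6 of 8 lay in the brighter class, among them Tubb3, Stmn2 and Chga, while Th and Dbh lay in the dimmer class. None of the 5 macrophage and blood, 5 fibroblast or 4 glial markers measured was in the brighter class, and 1 of 4 endothelial markers was (Kdr). Among the neuronal markers Dbh, which makes noradrenaline, was at 0.12, 0.07 and 0.13 on the control arrays and at -0.12, -0.22 and -0.07 on the knockdown arrays, lower by -0.25 ± 0.05 (SE; adjusted p = 0.759 in limma). Of the 8 measured, 5 changes were above 0 and 3 below, with a median of 0.01. Dbh and Gap43 had all knockdown arrays below the control arrays, as had 5.95% of all genes. Chga had them above, as had 4.33% of all genes. The glial and endothelial markers had 4 of 4 changes above 0 each (medians 0.09 and 0.05), and the fibroblast and the macrophage and blood markers 4 of 5 each (0.02 and 0.06), with separate groups for 1 of them, Ptprc. On knockdown arrays 1, 2 and 3 the list medians were 0.01, 0.17 and -0.03 for glia, 0.001, 0.25 and -0.13 for fibroblasts, 0.04, 0.07 and -0.05 for endothelium and 0.04, 0.04 and 0.0088 for macrophages and blood. On the control arrays these 4 medians lay between -0.09 and 0.05. All 4 glial markers were highest on knockdown array 2, and without it the medians of the changes were 0.05, 0.02, -0.04 and -8.2e-05 for glia, endothelium, fibroblasts, and macrophages and blood. The part of these markers in the results was not tested.

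In the knockdown cells Fuca2 and Renbp had lower signals on every array than in the control cells, at about 0.76 to 0.77 of the control level, while the other 7 genes overlapped between the groups. Fuca2 encodes an alpha-L-fucosidase that is largely secreted, and Renbp, first known as renin-binding protein, encodes the epimerase that interconverts N-acetylglucosamine and N-acetylmannosamine. Over all genes tested, 5.95% had 3 knockdown arrays below 3 control arrays (8.61% of the brighter class), and 4.33% had them above. At an unadjusted limma p under 0.05 the same 2 of 9 genes were lower and 0 were higher, where 2.65% of all genes were lower (3.52% of the brighter class) and 1.6% higher. At an adjusted p under 0.05 limma called 0 of the 9, and 1 gene of all (0.00603%). The comparison itself belongs to how the genes were chosen, so nothing is read from these counts. The median change of the 9 genes was -0.03, beside -6.6e-04 for all genes.

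**Figure D1:**
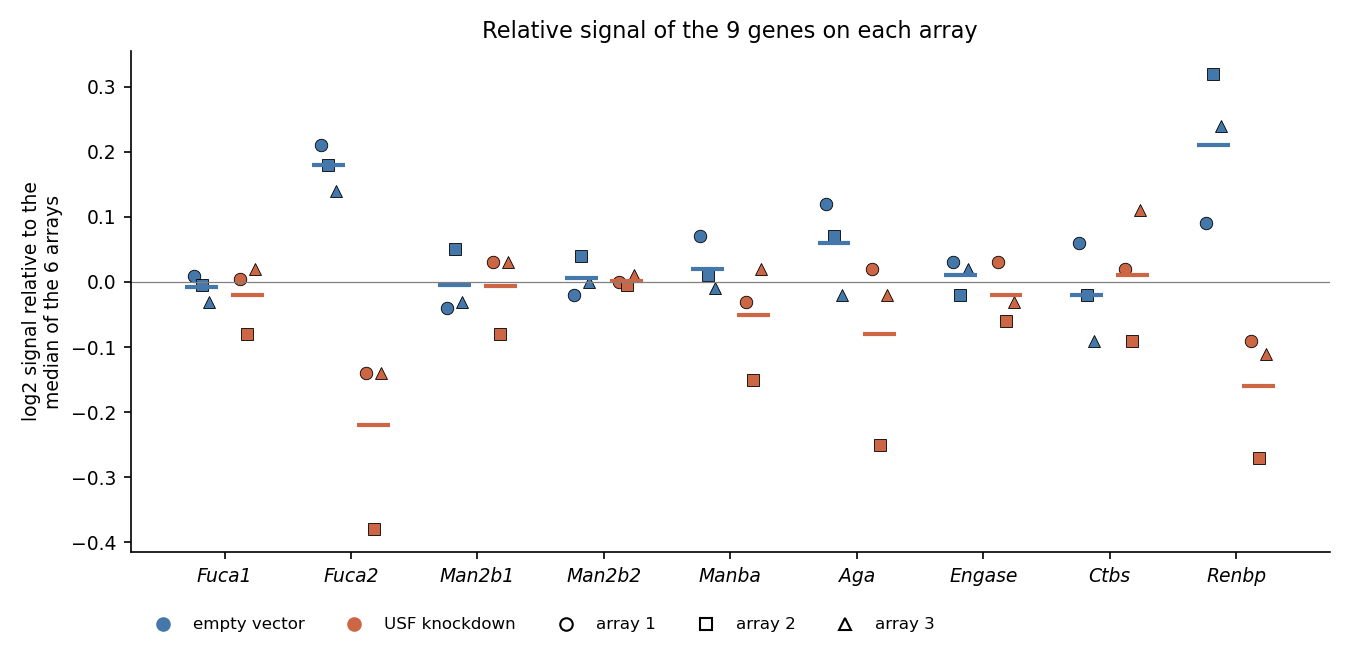
Relative log2 signal (y axis) of each of the 9 genes (x axis) on the 3 empty vector arrays (blue) and the 3 USF knockdown arrays (orange), with marker shapes for the array number and horizontal lines for group means. The groups are separate for Fuca2 and Renbp, and the square of knockdown array 2 is the lowest point for 8 of the 9 genes.

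Fuca2 (cluster 10361790) was at 0.21, 0.18 and 0.14 on control arrays 1, 2 and 3 and at -0.14, -0.38 and -0.14 on knockdown arrays 1, 2 and 3. The control arrays lay close together, knockdown arrays 1 and 3 were nearly equal, and knockdown array 2 was lower by 0.24 than their mean. The group means were 0.18 ± 0.04 (SD, n = 3) and -0.22 ± 0.14 (SD, n = 3). The change was -0.39 ± 0.07 (SE), or 0.762-fold with a 95% interval of 0.68 to 0.853, and the limma adjusted p over all genes was 0.559. Without knockdown array 2 the change was -0.31, or 0.805-fold (limma adjusted p = 0.135). With all arrays the change of Fuca2 was the 7th most negative of the 16583 genes, and that of Usf2 was the 8th. Without knockdown array 2 the order of these 2 genes turned, with Usf2 at -0.39. By limma p, Fuca2 was 11th and Usf2 6th among genes with a change below 0. The comparison belongs to how Fuca2 was chosen, so nothing is read from these ranks.

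Renbp (cluster 10605181) was at 0.09, 0.32 and 0.24 on the control arrays and at -0.09, -0.27 and -0.11 on the knockdown arrays. Here the control arrays were widely spread, with array 1 the lowest of them, and knockdown array 2 was again the lowest of all. The group means were 0.21 ± 0.12 (SD, n = 3) and -0.16 ± 0.1 (SD, n = 3). The change was -0.37 ± 0.08 (SE), or 0.774-fold with a 95% interval of 0.686 to 0.873 (limma adjusted p = 0.717 over all genes). It was -0.31 without knockdown array 2 (limma adjusted p = 0.328), -0.32 without control array 2 and -0.43 without control array 1. Over all genes, 9 (0.0543%) had a change at or below that of Renbp, with Renbp itself, Usf1, Fuca2 and Usf2 among them. By limma p, Renbp was 21st among genes with a change below 0. Because the comparison belongs to how Renbp was chosen, nothing is read from this share or rank.

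Sequence around the start sites is shown for Fuca2 and Renbp, the genes with the separate groups, and for Fuca1, the relative of Fuca2 with overlapping groups. The windows run from 250 bases before to 50 after the start, 5′ to 3′ on the strand of the gene, from RefSeq on GRCm38.p6, and capitals mark each match to CANNTG (the general E-box), GGGCGG (the GC box) or CCAAT on either strand. Fuca2 lies at chr10:13500778-13501077, plus strand, Renbp at chrX:73930801-73931100, minus strand, and Fuca1 at chr4:135920476-135920775, plus strand.
Fuca2: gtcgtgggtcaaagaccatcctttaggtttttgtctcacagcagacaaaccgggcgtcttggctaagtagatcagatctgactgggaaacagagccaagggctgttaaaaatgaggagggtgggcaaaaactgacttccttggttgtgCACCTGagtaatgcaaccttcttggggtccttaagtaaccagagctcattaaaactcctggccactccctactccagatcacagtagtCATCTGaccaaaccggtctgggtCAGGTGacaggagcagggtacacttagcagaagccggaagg
Renbp: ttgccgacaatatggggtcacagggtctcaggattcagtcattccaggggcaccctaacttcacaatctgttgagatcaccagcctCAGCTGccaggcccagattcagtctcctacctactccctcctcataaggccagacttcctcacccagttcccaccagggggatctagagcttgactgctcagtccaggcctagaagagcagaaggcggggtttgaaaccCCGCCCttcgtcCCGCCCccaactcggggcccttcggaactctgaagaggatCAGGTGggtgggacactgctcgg
Fuca1: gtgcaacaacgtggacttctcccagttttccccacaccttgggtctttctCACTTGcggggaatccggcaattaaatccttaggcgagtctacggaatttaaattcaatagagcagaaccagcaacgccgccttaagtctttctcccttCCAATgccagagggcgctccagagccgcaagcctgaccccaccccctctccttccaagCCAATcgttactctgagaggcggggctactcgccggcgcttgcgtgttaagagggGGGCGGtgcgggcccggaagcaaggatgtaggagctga

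RefSeq windows were matched for 8 of the 9 genes, all but Aga. The E-box CACGTG, preferred by USF factors, was in 0 of these 8 windows and in 7.15% of all 32851 windows, and its extension TCACGTG was in 0 and in 3.77%. CACATG was in 0 of 8 and in 14.2% of all. Allowing any middle bases, CANNTG, of which CACGTG and CACATG are cases and which was added after the sequences were seen, was in 5 of 8 windows (Manba, Ctbs, Fuca1, Fuca2 and Renbp) and in 72.3% of all. The Fuca2 window held 3 such matches, CACCTG at -102, CATCTG at -14 and CAGGTG at 10, counted from the start site. That of Renbp held 2, CAGCTG at -164 and CAGGTG at 28. GGGCGG was in 6 of 8 windows, against 35.7% of all. The windows without it were those of Fuca2 and Man2b2. CCAAT was in 3 of 8, those of Fuca1, Man2b1 and Ctbs, against 37.4% of all, and in Ctbs it overlapped the CANNTG match. The share of G and C was 50.3% in Fuca2, 58.3% in Renbp and 57% in Fuca1, beside a median of 52.7% for all windows. In the other windows it was 64.3% (Manba), 61.7% (Ctbs), 60.7% (Man2b2), 56.7% (Engase) and 52.7% (Man2b1). A match is only a match of letters, and sequence further from the start was not searched.

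The lysosomal relative of Fuca2, Fuca1 (cluster 10509127), is the fucosidase whose loss causes fucosidosis. It was at 0.0091, -0.0043 and -0.03 on the control arrays and at 0.0043, -0.08 and 0.02 on the knockdown arrays. Apart from knockdown array 2 all arrays lay within 0.05 of each other, and the groups overlapped. The change was -0.01 ± 0.04 (SE), or 0.991-fold with a 95% interval of 0.922 to 1.07, and its sign turned to 0.02 without knockdown array 2. The 95% intervals of the changes of Fuca2 and Fuca1 on the log2 scale were -0.56 to -0.23 and -0.12 to 0.09. These intervals are per gene and not adjusted for the number of genes. The difference between these fucosidases was not tested.

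The alpha-mannosidases had the smallest changes of the 9 genes. Man2b1 (cluster 10573583), the broad alpha-mannosidase of the lysosome, was at -0.04, 0.05 and -0.03 on the control arrays and at 0.03, -0.08 and 0.03 on the knockdown arrays. Its change was -8.9e-04 ± 0.05 (SE), 0.999-fold with a 95% interval of 0.921 to 1.08, and its sign turned under 5 of 13 other settings, with values of up to 0.04. Man2b2 (cluster 10529584), an alpha-mannosidase that acts on the glycan core, was at -0.02, 0.04 and -6.9e-04 on the control arrays and at 6.9e-04, -0.0051 and 0.01 on the knockdown arrays. It was the only one of the 9 whose lowest value was not on knockdown array 2. Its change was -0.0042 ± 0.04 (SE), 0.997-fold with a 95% interval of 0.934 to 1.06. Manba (cluster 10496302), the beta-mannosidase that removes the last mannose, was at 0.07, 0.01 and -0.01 on the control arrays and at -0.03, -0.15 and 0.02 on the knockdown arrays. The groups overlapped, with knockdown array 3 above control arrays 2 and 3. Its change was -0.08 ± 0.05 (SE), 0.948-fold with a 95% interval of 0.869 to 1.04, and -0.03 without knockdown array 2.

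Among the enzymes of the glycan core, Aga (cluster 10571774), which cuts the bond between N-acetylglucosamine and asparagine, was at 0.12, 0.07 and -0.02 on the control arrays and at 0.02, -0.25 and -0.02 on the knockdown arrays. Knockdown array 2 lay far below the other 5, which overlapped between the groups. The change was -0.14 ± 0.08 (SE), 0.908-fold with a 95% interval of 0.804 to 1.03, and became -0.06, or 0.962-fold, without that array. Ctbs (cluster 10496813), the chitobiase that splits the core at its reducing end, was at 0.06, -0.02 and -0.09 on the control arrays and at 0.02, -0.09 and 0.11 on the knockdown arrays. It was the only one of the 9 with a change above 0, at 0.03 ± 0.06 (SE), 1.02-fold with a 95% interval of 0.919 to 1.13. Its sign turned without control array 3 (-0.0094) or knockdown array 3 (-0.02). Engase (cluster 10383032), the cytosolic endoglycosidase that cuts between the core N-acetylglucosamines, was at 0.03, -0.02 and 0.02 on the control arrays and at 0.03, -0.06 and -0.03 on the knockdown arrays. Knockdown arrays 2 and 3 lay below the control arrays and knockdown array 1 was the highest of all, so the groups overlapped. The change was -0.03 ± 0.04 (SE), 0.979-fold with a 95% interval of 0.911 to 1.05. For these 3 genes, Fuca1 and the mannosidases, limma adjusted p over all genes lay between 0.996 and 0.999.

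**Figure D2:**
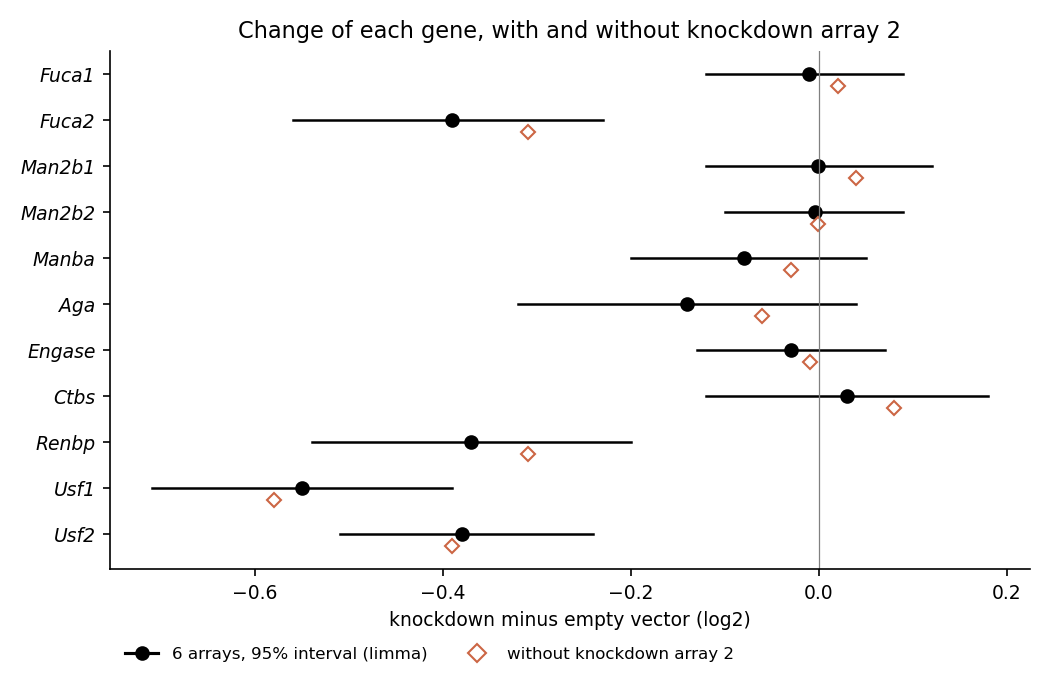
Change from empty vector to USF knockdown on the log2 scale (x axis) for the 9 genes and both targets (y axis), with limma 95% intervals from all 6 arrays (black) and the change without knockdown array 2 (open diamonds). The intervals of Fuca2, Renbp, Usf1 and Usf2 lie below 0, while those of the other 7 genes span 0. The intervals are per gene and not adjusted for the 16583 genes. The limma adjusted p was 0.559 for Fuca2 and 0.717 for Renbp, and 4.25% of all genes had an unadjusted limma p under 0.05.

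Knockdown array 2 was the lowest of the 6 arrays for 8 of the 9 genes. It was the lowest for 28.4% of all genes and for 41.3% of the brighter class, to which 8 of the 9 belong. With all arrays 8 of the 9 changes were below 0, as were 50.4% over all genes, and without this array 6 of 9 were, with a median of -0.0096. Fuca2 and Renbp stayed at -0.31 each without it. The part of this array in the smaller differences was not tested further.

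**Figure D3:**
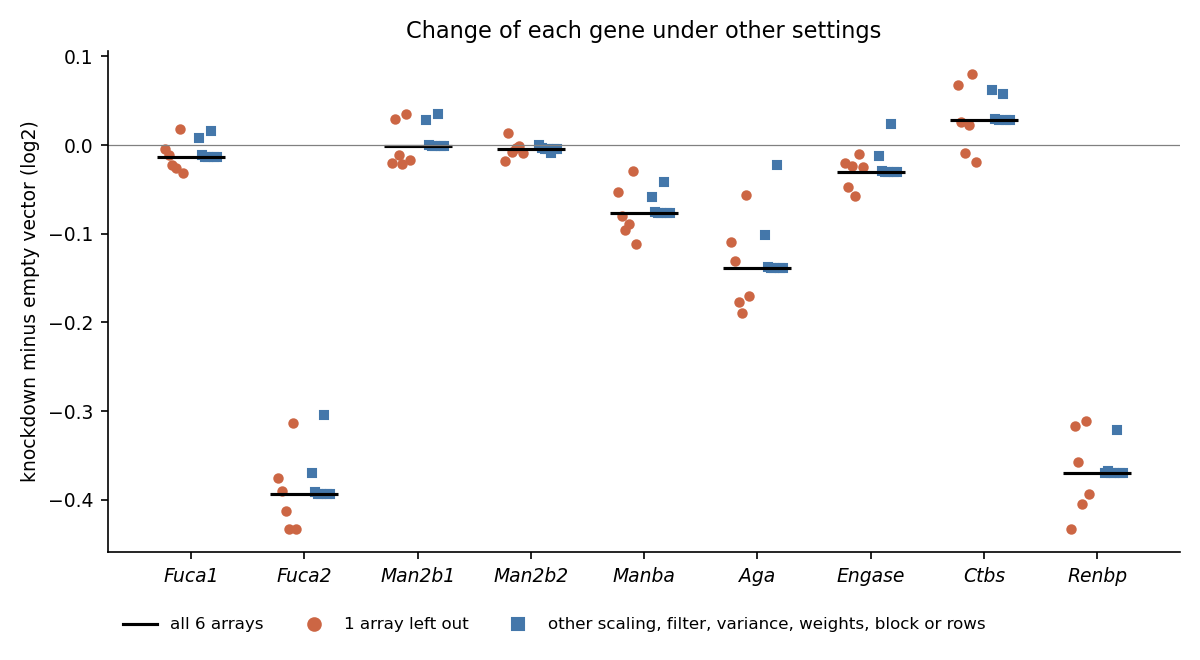
Change from empty vector to USF knockdown on the log2 scale (y axis) for the 9 genes (x axis) with all 6 arrays (black line), with 1 array left out (orange circles) and under other analysis settings (blue squares). Fuca2 lies between -0.43 and -0.3 and Renbp between -0.43 and -0.31 throughout, while Fuca1, Man2b1, Man2b2, Engase and Ctbs cross 0.

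Renbp followed Fuca2 across the 6 arrays with a Pearson correlation of 0.917, the 201st highest of all genes with Fuca2, as a description over 6 points that share the split into groups. Aga and Manba had correlations of 0.856 and 0.828 with Fuca2, and all 3 genes had their lowest value on knockdown array 2. Those of Fuca1, Man2b1, Man2b2, Engase and Ctbs were between 0.15 and 0.602. The genes most like Fuca2 in this measure were Ankrd45 (0.9962, a change of -0.27), Errfi1 (0.9912, -0.08) and Ndst4 (0.9904, -0.15). These are the highest of 16583 genes over only 6 arrays.

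Related enzymes were read from 5 lists with 46 measured genes, of which 0 passed in limma over all genes and 1 was at an unadjusted p under 0.05, where 4.25% of all genes were. This was Hexa, a subunit of the lysosomal hexosaminidase, which was at 0.18, 0.08 and 0.13 on the control arrays and at -0.15, -0.1 and -0.08 on the knockdown arrays, a change of -0.24 ± 0.05 (SE, limma adjusted p = 0.616). Hexa belongs to a list of exoglycosidases and Ctsa, in which, with Hexa counted, 7 of 9 listed were measured, 4 changes were above 0 and 3 below, with a median of 0.04 that was -0.03 without knockdown array 2. Besides Hexa, those with the smallest p were the sialidase Neu4 (0.2 ± 0.11, SE, with 0.39 on knockdown array 2) and the protective protein Ctsa (0.07 ± 0.04, SE), which stabilises a galactosidase and a sialidase in the lysosome. The groups did not overlap for 4 of the 7, Hexa and the sialidase Neu1 (-0.07 ± 0.04, SE) lower and Ctsa and the galactosidase Gla (0.06 ± 0.05, SE) higher. Over all genes 5.95% had separate groups with the knockdown arrays lower and 4.33% with them higher. Nothing is read from this count of a few genes.

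Renbp stands beside 19 measured of 20 listed genes that recycle or make amino sugars, sialic acid, fucose and mannose phosphates. Their changes lay between -0.13 and 0.08, with 10 above 0, 9 below and a median of 0.0043. Separate groups were seen for 0 of them, where 5.95% of all genes had them lower and 4.33% higher. The smallest p belonged to Nanp, the phosphatase that finishes sialic acid (-0.13 ± 0.06, SE), Amdhd2, which removes the acetyl group from N-acetylglucosamine phosphate (0.08 ± 0.07, SE), and Gne, which starts sialic acid synthesis and makes N-acetylmannosamine from another precursor (0.03 ± 0.04, SE). None of the 19 was as far from 0 as Renbp at -0.37, a difference that was not tested. Engase stands beside 3 measured of 4 listed genes of cytosolic glycan removal, with Ngly1, the glycanase that frees whole glycans, at -0.1 ± 0.12 (SE), Man2c1, a cytosolic mannosidase, at -0.02 ± 0.05 and Rad23b, a partner of Ngly1, at 0.02 ± 0.04. Ngly1 was at -0.38 on knockdown array 2 and between -0.04 and 0.13 on the other 5 arrays.

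Glycosidases that trim glycans during synthesis in the endoplasmic reticulum and Golgi, 13 measured of 13 listed, had changes from -0.12 to 0.02. Of these 10 were below 0 and 7 had their lowest value on knockdown array 2, and the median of -0.03 became 5.3e-04 without that array. The smallest p belonged to Mogs, the glucosidase that makes the first cut (-0.12 ± 0.06, SE), the mannosidase Man1b1 (-0.05 ± 0.04) and Edem2 (-0.04 ± 0.06), which marks misfolded glycoproteins. Man1b1 was the 1 gene of the 13 whose groups did not overlap, with the knockdown arrays lower, as in 5.95% of all genes (8.61% of the brighter class). Of the chitinase family, to which Ctbs belongs by sequence, 4 measured of 7 listed had a median of 0.0083, with Chid1 at -0.1 ± 0.05 (SE), Chit1 at 0.05 ± 0.06 and Chil1 at 0.05 ± 0.09, and all 4 lay in the dimmer class. Without knockdown array 2 that median was -0.07.

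**Figure D4:**
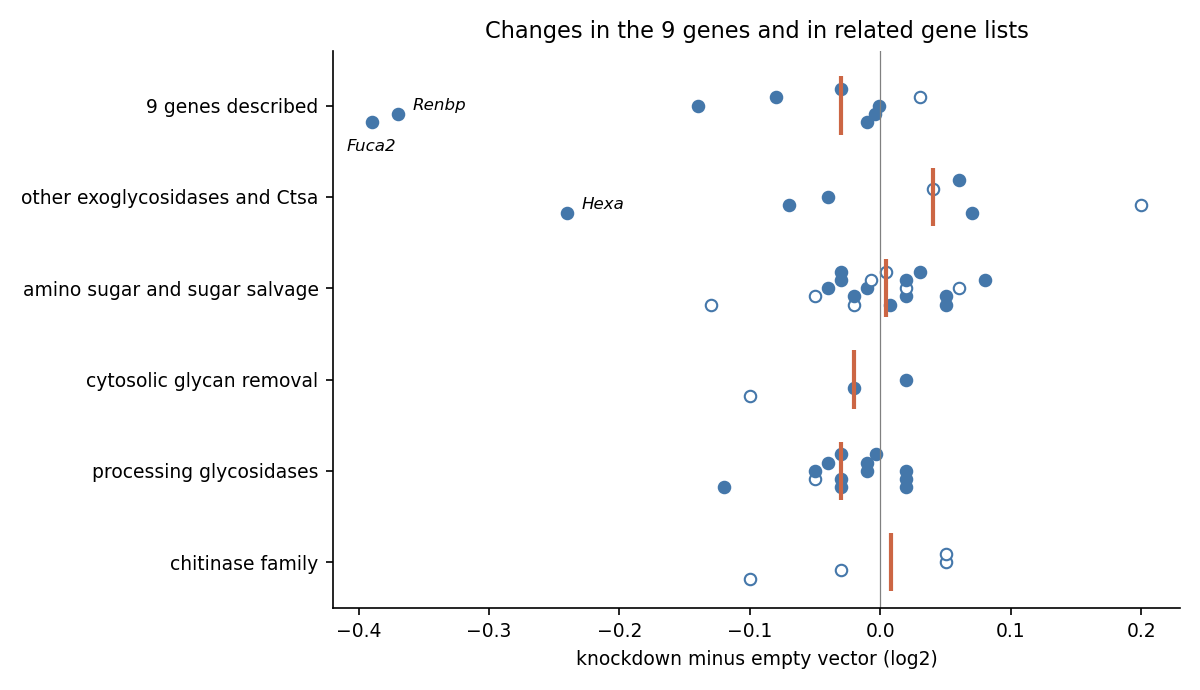
Change from empty vector to USF knockdown on the log2 scale (x axis) for each gene of the 9 and of the 5 related lists (y axis), filled for the brighter class and open for the others, with medians as vertical lines and names for genes at an unadjusted limma p under 0.05. Fuca2 and Renbp, at -0.39 and -0.37, lie left of every gene of the related lists, of which Hexa at -0.24 is the lowest.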

How the data were processed

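RNA from 3 empty vector and 3 USF knockdown samples was made into labelled cDNA with an Ambion kit and an Affymetrix terminal labelling kit, per the labels' protocols. The deposited table gives log2 values for 22891 transcript clusters, each centred on that cluster's median of the 6 arrays. The log2 base was inferred from the rounding step of the numbers, which also gave the brightness class (tolerance 0.05 of a step). How the authors corrected background and normalized arrays is not stated in the labels or the file. Names came from the platform annotation: 18087 clusters had 1 symbol, 1145 several and 3659 none, and 18023 were matched to RefSeq by Entrez identifier. Clusters of a gene were averaged.

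Changes were fitted over all 16583 genes in limma 3.58.1 (lmFit, eBayes; R 4.3.3) (4 residual and 3.79 prior degrees of freedom) with Benjamini-Hochberg adjustment over all genes at a threshold of 0.05. The fit was also run on simulated data. These lacked the shift between brighter and dimmer genes seen on knockdown array 2, and nothing here rests on them. Motifs and figures used Python 3.11.15, NumPy 2.4.6, pandas 2.3.3 and matplotlib 3.10.9. The 9 genes and all lists were chosen with earlier results of these data known. Of each related list the text names the genes at an unadjusted p under 0.05 and, where these were under 3, the 3 with the smallest p. Of the genes matched to Fuca2 by correlation it names the 3 highest. Other list genes are named to complete a count. Alternatives were scaling, a filter on dim genes, the variance prior, array weights, a replicate block, clusters as rows and leaving out each array.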

Additional observations from a re-analysis of the deposited data

How the results depend on the processing

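Over 13 alternatives Fuca2, Renbp, Manba and Aga stayed below 0 in each. The count of genes past the threshold, 1 with all arrays, was 1111 with array quality weights, where 2 of the 9 genes passed, Fuca2 (-0.3, limma adjusted p = 0.00293) and Renbp (-0.32, 0.00518). That fit gave knockdown array 1 a weight of 33 and arrays 2 and 3 weights of 0.136 and 0.441, so it rests mainly on 1 knockdown array. In the other alternatives 0 of the 9 passed, with limma adjusted p from 0.0709 (quantile normalization) to 1 for Fuca2 and from 0.156 to 1 for Renbp. Leaving out 1 array gave 0 to 1 genes past the threshold, 0 without control array 1, 2 or 3 or knockdown array 1, and 369 to 1248 at an unadjusted p under 0.05, against 705 with all arrays. With the replicate number as a block the count was 0, and Fuca2 and Renbp had limma adjusted p of 0.997 each. Same-numbered arrays had correlations of deviations of 0.00311, 0.0819 and 0.0364 and not every array correlated best with its own number. This check showed no clear pairing by number, and with 3 arrays per group it cannot exclude one.

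Signs turned for genes near 0. Under quantile normalization Fuca1 was at 0.0077 and Man2b1 at 0.0284, with arrays centred on their medians Man2b1 at 4.1e-04, and with array weights Fuca1 at 0.0158, Man2b1 at 0.0352 and Engase at 0.0242; the cause was not tested. Without 1 array Fuca1 lay between -0.0317 and 0.0181, Man2b1 between -0.0210 and 0.0351, Man2b2 between -0.0179 and 0.0130 and Ctbs between -0.0192 and 0.0806. The median of the 9 genes moved by less than its spread between replicates in each alternative. The filter on dim genes leaves no value for Ctbs.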
